A study of Mus musculus with 2 samples.

Results

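The genes described here are the pattern-recognition receptors of innate immunity and their proximal signalling partners in the mouse kidney. They were taken by name, as the protein-coding genes whose symbol begins with Tlr or Clec and a digit, or with Nlrp, Nlrc or Nlrx, together with 12 co-receptors, adaptors and kinases (Cd14, Ly96, Myd88, Ticam1, Ticam2, Irak1 to Irak4, Nod1, Nod2 and Ripk2). The rule gave 79 genes of the 45777 in the count table, of which 21949 were protein-coding. No measured value entered the rule, although the genes it covers were chosen with earlier results of these data known. RNA from whole kidneys was sequenced in 1 library from mice in which Inmt was conditionally knocked out in the proximal tubule (CKO), and in 1 library from control mice. Both groups ate standard chow and received no treatment. The strain, age, Cre driver, control genotype and number of animals per library are not given in the sources used here. Inmt encodes an indolethylamine N-methyltransferase, and its reads numbered 5283 in the CKO library, against 17678 in the control library, a level 4.73-fold lower (95% counting interval 4.59 to 4.88).

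Toll-like receptors sense microbial lipids, proteins and nucleic acids at the cell surface or inside endosomes, and hand the signal to the adaptors Myd88 and Ticam1 and to the Irak kinases. NOD-like receptors, named Nod, Nlrp, Nlrc and Nlrx, work in the cytosol, and some of them assemble inflammasomes that activate caspase-1. C-type lectin receptors, most of the Clec genes, bind sugars and other ligands on microbes, on dying cells or on neighbouring cells. Macrophages and dendritic cells carry most of these receptors, while tubular epithelium is known to carry several, among them Tlr4 and Nlrp6.

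Before any scaling, the CKO library held 38136616 counted reads and the control library 33618076. Levels are in CPM, the read count relative to the TMM-scaled library size, ratios are CKO over control, and intervals are exact 95% counting intervals that leave out the variation between animals. With 1 library per group there was no test and no p-value, and a difference below is a difference between these 2 libraries. Markers of the proximal tubule, the segment targeted, were present in both libraries. They summed to 15365 CPM in the CKO library and 28968 CPM in the control library. Of the 10 markers, 4 were at least 2-fold lower, beside 1.39% of all protein-coding genes at 1 CPM or more. All 9 tubular injury markers were at least 2-fold higher, beside 10.9% of those genes, as were 12 of 13 macrophage markers at 1 CPM or more. In whole tissue, a gene expressed by more cells and a gene expressed more per cell cannot be told apart.

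The promoters of 6 members are shown, 5 Toll-like receptor genes and Clec2d, because they hold matches to the motifs searched and lie in genes whose ratios range from near 1 to about 10. The windows run from 250 bases before to 50 bases after a RefSeq start site (RefSeq, GRCm38.p6), 5′ to 3′ on the gene's strand. Capitals mark matches to AGGAAGT, a core of PU.1 and other ETS factor sites, or to a core of interferon response elements, GAAA and GAAA with any 2 bases between them, on either strand. Tlr1 and Tlr6 each have a second start site whose window is not shown. That of Tlr1 held 0 matches to the motifs searched, and that of Tlr6 held 1, to AGGAAGT. Tlr1 and Tlr6 are neighbours on chromosome 5, and Tlr11 and Tlr12 both sense profilin in mice. Tlr9 senses unmethylated DNA, and Clec2d encodes a ligand of an inhibitory natural killer cell receptor.
Tlr1 (chr5:64933509-64933808, minus strand): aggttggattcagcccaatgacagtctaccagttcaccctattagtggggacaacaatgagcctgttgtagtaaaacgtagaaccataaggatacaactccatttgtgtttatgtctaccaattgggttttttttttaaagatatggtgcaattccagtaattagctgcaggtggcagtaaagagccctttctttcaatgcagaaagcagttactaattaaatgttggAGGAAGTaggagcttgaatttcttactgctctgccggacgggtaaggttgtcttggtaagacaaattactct
Tlr6 (chr5:64959117-64959416, minus strand): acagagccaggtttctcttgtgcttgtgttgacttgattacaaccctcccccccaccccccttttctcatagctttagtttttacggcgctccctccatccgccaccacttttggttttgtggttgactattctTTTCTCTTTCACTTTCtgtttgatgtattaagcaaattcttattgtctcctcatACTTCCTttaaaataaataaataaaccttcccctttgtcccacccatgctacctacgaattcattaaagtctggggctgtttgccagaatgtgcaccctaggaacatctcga
Tlr11 (chr14:50357664-50357963, plus strand): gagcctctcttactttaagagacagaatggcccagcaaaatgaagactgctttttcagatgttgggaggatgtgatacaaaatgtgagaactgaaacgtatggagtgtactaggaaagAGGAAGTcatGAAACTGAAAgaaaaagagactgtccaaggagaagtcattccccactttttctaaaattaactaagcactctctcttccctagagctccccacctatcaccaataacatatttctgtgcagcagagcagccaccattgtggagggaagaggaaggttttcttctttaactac
Tlr12 (chr4:128618570-128618869, minus strand): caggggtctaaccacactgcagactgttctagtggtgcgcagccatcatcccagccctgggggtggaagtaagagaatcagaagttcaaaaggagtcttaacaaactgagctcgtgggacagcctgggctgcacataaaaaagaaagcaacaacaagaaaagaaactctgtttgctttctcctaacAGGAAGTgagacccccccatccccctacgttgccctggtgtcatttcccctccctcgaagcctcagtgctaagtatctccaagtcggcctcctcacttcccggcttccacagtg
Tlr9 (chr9:106222348-106222647, plus strand): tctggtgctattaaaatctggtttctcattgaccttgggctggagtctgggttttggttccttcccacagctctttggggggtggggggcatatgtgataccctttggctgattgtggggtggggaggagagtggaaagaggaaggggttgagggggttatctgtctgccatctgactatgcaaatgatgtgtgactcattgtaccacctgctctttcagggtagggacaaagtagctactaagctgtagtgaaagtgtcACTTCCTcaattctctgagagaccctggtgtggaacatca
Clec2d (chr6:129180365-129180664, plus strand): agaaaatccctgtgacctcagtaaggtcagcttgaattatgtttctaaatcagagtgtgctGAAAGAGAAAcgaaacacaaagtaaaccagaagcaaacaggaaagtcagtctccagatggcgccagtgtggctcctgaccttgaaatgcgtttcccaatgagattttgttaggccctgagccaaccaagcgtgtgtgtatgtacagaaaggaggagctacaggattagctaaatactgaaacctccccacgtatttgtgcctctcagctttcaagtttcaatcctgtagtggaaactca
In the Tlr6 window a pair of overlapping interferon element matches lies before an ETS match. In the Tlr11 window the ETS match is followed closely by an interferon element match.

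The promoter table held 61 of the 79 members, with 75 windows. AGGAAGT was found in 11 of the 61 genes (18%), against 10.4% of 17519 protein-coding genes in the table. The interferon element core was found in 7 of the 61 (11.5%), against 3.94% of those genes, and a form of the NF-kB site, GGGA and TCC with any 3 bases between them, in 4 of 61 (6.56%), against 5.54%. AGGAAGT was as common among members that were at least 2-fold higher in the CKO library (4 of 18) as among members between the 2-fold limits (4 of 18). The interferon element core was found in 3 of those 18 higher members, Clec2d, Tlr6 and Tlr11, and in 1 of the 18 others, Myd88. The NF-kB form was found in none (0) of the 18 higher members and in 2 of the 18 others, Nlrx1 and Tlr3. Clec4b1, Clec4d and Nlrp5, which stayed below 1 CPM in both libraries, held the interferon element core. The matches are letters in these windows only and were not weighed as sites.

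**Figure D1:**
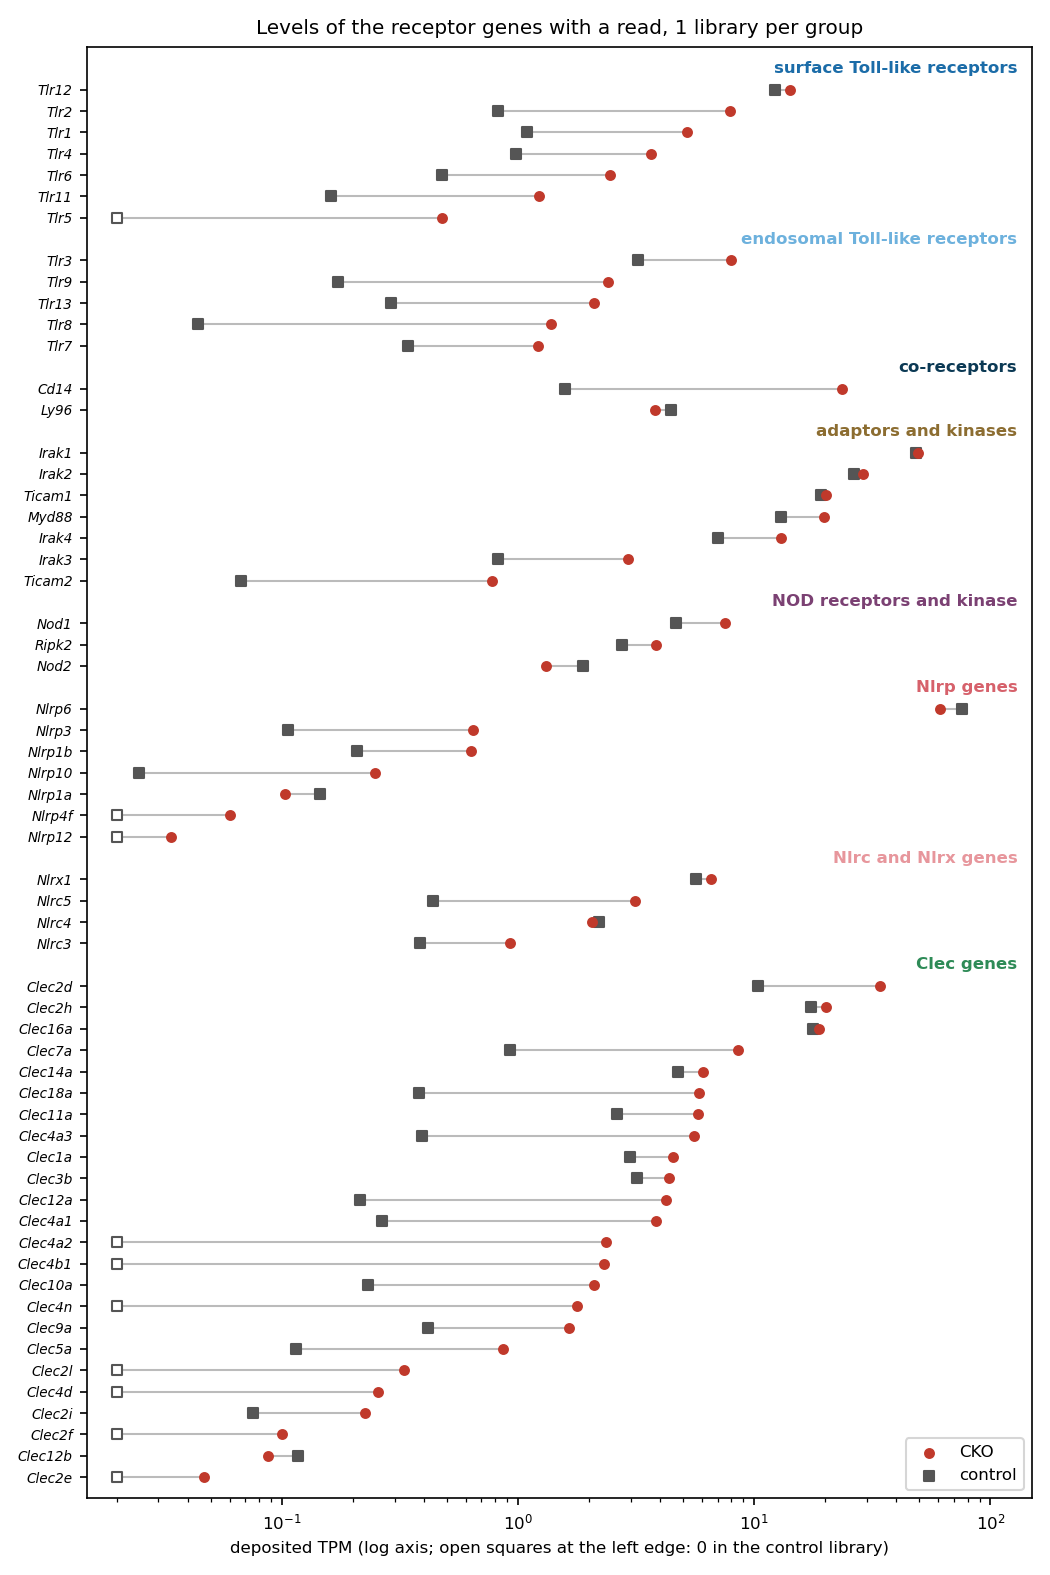
Deposited TPM, a level per transcript length, of the 59 receptor genes with a read in either library, on a log axis and grouped by role. Circles are the CKO library and squares the control library. Nlrp6 and Irak1 lead in both libraries and lie close together there, whereas Cd14, Tlr2, Clec7a and Clec12a have low control levels and CKO levels far to the right.

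On the deposited TPM scale, Nlrp6 had the highest level of all 79 genes in both libraries, at 61.0 TPM in the CKO library and 75.7 TPM in the control library. Irak1 followed with 49.2 and 48.5 TPM in the CKO and control libraries. After them the order differed. In the CKO library Clec2d (34.2 TPM), Irak2 (28.9 TPM) and Cd14 (23.6 TPM) came next. In the control library Irak2 (26.4 TPM), Ticam1 (19.2 TPM) and Clec16a (17.7 TPM) came next, and Cd14 stood at place 22 with 1.58 TPM.

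Of the 79 genes, 59 had a read in either library and 20 had none, where 25.4% of all protein-coding genes had no read. Reads in the CKO library alone were found for 10 of them, beside 5.63% of all protein-coding genes, and in the control library alone for none (0), beside 0.715%. 46 genes reached 1 CPM in either library. Of these, 16 did so through the CKO library only, beside 6.28% of the protein-coding genes at that level, and none (0) through the control library only, beside 0.612%. The 16 could pass only by being higher in the CKO library, so their presence among the 46 is no support for a difference.

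Among the 46 genes, 24 were at least 2-fold higher in the CKO library on the scale of CPM + 0.5, where 10.9% of all 13556 protein-coding genes at 1 CPM were. None (0) was at least 2-fold lower, where 1.39% of those genes were, and 22 lay between. The median log2 ratio was 1.11 for the 46 genes and 0.01 for all protein-coding genes. With the minimum placed on the mean of both libraries, 20 of 41 genes were higher, beside 9.97% of all. Genes under 1 CPM in the control library, such as Clec4a2 and Tlr8, passed this minimum too only through their CKO level. This count is therefore no separate support for a difference. At least 4-fold higher were 11 of the 46, beside 2.07% of all. The 95% ratio interval lay above 1 for 31 genes, where 38.2% of all did, below 1 for 11, where 35.6% of all did, and held 1 for 4.

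Most of the higher genes were scarce. Among members with a mean level from 1 to 10 CPM, 19 of 27 were at least 2-fold higher, where 24.7% of protein-coding genes at that level were. From 10 to 100 CPM, 1 of 13 was, Clec2d, where 4.87% of protein-coding genes were and 0.819% were at least 2-fold lower. The 1 member over 100 CPM, Nlrp6, was lower, where 1.36% of protein-coding genes at that level were at least 2-fold higher and 4.25% at least 2-fold lower.

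**Figure D2:**
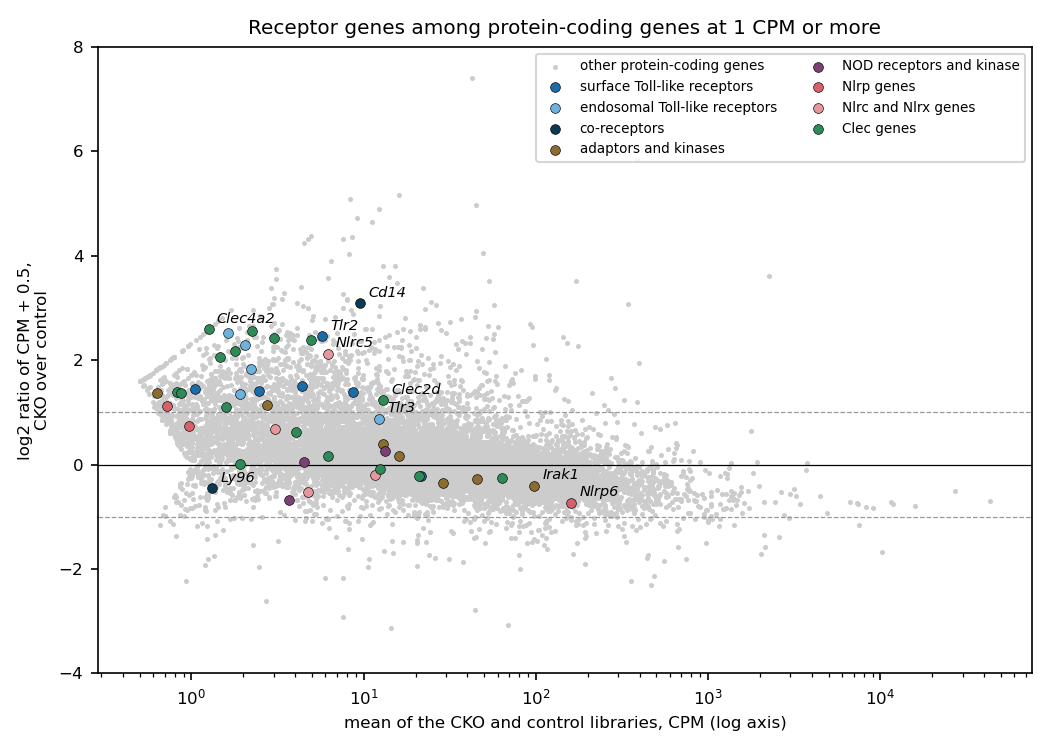
Log2 ratio of CPM + 0.5, CKO over control, against the mean CPM of the 2 libraries, for the 46 receptor genes at 1 CPM or more (coloured by role) over all other protein-coding genes at that level (grey). The receptor genes below about 10 CPM lie mostly above the upper 2-fold line, and those with more reads lie near 0.

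Of the 7 Toll-like receptor genes grouped here as surface receptors, 6 reached 1 CPM and 5 of these were at least 2-fold higher in the CKO library. The group was set by a list that includes Tlr11 and Tlr12, and the place of the proteins in the cell was not measured. With the minimum on the mean of both libraries, 5 of 6 were higher, beside 9.97% of all protein-coding genes. Tlr11, at 0.332 CPM in the control library, passed this minimum only through its CKO level. Tlr2, which senses bacterial lipoproteins (NCBI gene 24088, chromosome 3, 83836272 to 83841824, GRCm38.p6), had 429 reads in the CKO library, against 43 in the control library. Its level was 10.1 CPM (9.14 to 11.1) in the CKO library and 1.43 CPM (1.03 to 1.92) in the control library, 7.05-fold higher (5.15 to 9.89). Tlr1 and Tlr6 encode the partners that pair with Tlr2 for different lipopeptides. Tlr1 had 286 reads in the CKO library and 61 in the control library, and was 3.32-fold higher (2.51 to 4.45). Tlr6 had 163 reads in the CKO library and 34 in the control library, and was 3.39-fold higher (2.33 to 5.06). The ratios of both partners were smaller than that of Tlr2, with intervals that did not overlap its interval. Tlr1 and Tlr6 share sequence, with 15.4% of the 50-base stretches of Tlr1 transcripts found in another gene, mostly Tlr6, and 12.3% of those of Tlr6, so the split of reads between them is uncertain. Tlr6 also overlaps Fam114a1, which had 548 reads in the CKO library and 199 in the control library.

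Tlr4, the receptor for bacterial lipopolysaccharide (chromosome 4, 66827551 to 66846581), had 547 reads in the CKO library and 138 in the control library, 2.80-fold higher (2.32 to 3.40). The genes of its 2 accessory proteins differed. Cd14, which hands lipopolysaccharide to the receptor complex (NCBI gene 12475, chromosome 18, 36725064 to 36726815), had 740 reads in the CKO library and 48 in the control library. Cd14 was 10.9-fold higher (8.14 to 14.9), at 17.4 CPM (16.1 to 18.7) in the CKO library and 1.59 CPM (1.18 to 2.11) in the control library. Its log2 ratio of CPM + 0.5, at 3.09, was the largest of the 46 genes. The plain ratios of the scarcer genes Tlr8 (23.5), Clec12a (14.0) and Clec4a2 (0 reads in the control library) were larger. Ly96, the MD-2 protein that binds lipopolysaccharide beside Tlr4, had 44 reads in the CKO library and 48 in the control library, a log2 ratio of -0.45. On the TPM scale Ly96 stood at 3.79 in the CKO library and 4.42 in the control library. On the TPM scale the level of Ly96 was thus below that of Cd14 in the CKO library and above it in the control library. In CPM the 2 genes were equal in the control library, at 1.59.

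Tlr11 and Tlr12, which sense the profilin of apicomplexan parasites in mice, differed in level and ratio. Tlr12 was the most abundant Toll-like receptor gene in both libraries, with 14.1 TPM in the CKO library and 12.2 TPM in the control library. Its reads numbered 848 in the CKO library and 696 in the control library, a ratio of 0.862 (0.778 to 0.954), which turned above 1 with total counts, TPM or FPKM as the scale. Tlr11 had 75 reads in the CKO library and 10 in the control library, 5.30-fold higher (2.73 to 11.5). Tlr5, the flagellin receptor, stayed below 1 CPM with 39 reads in the CKO library and was listed at 0 in the control library, at least 9.19-fold higher against a floor of 3 control reads. Such bounds leave out the counting error of the CKO reads, and the lower end of the two-sided 95% interval for Tlr5 was 7.13.

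The 5 Toll-like receptor genes grouped here as endosomal did not include Tlr11 and Tlr12. All 5 had a ratio interval above 1, and 4 were at least 2-fold higher, beside 10.9% of all protein-coding genes. Of the 5, 4 reached 1 CPM through the CKO library only. With the minimum on the mean of both libraries, 4 of 5 were higher, beside 9.97% of all. These 4 were under 1 CPM in the control library and passed this minimum too only through their CKO level. Tlr8, for single-stranded RNA, had 133 reads in the CKO library and 4 in the control library, 23.5-fold higher with a wide interval (8.97 to 87.6). Tlr9 had 158 reads in the CKO library and 11 in the control library, and was 10.2-fold higher (5.52 to 20.8). Tlr13, a receptor for bacterial ribosomal RNA in mice, had 160 reads in the CKO library and 21 in the control library, and was 5.39-fold higher (3.41 to 8.94). Tlr7, the other receptor for single-stranded RNA, had 127 reads in the CKO library and 26 in the control library, and was 3.45-fold higher (2.25 to 5.49). Tlr3, which senses double-stranded RNA and signals through Ticam1 rather than Myd88, was the most abundant of the 5, at 8.01 TPM in the CKO library and 3.21 TPM in the control library. Tlr3 had 680 reads in the CKO library and 254 in the control library and was 1.89-fold higher (1.64 to 2.2), the smallest ratio of the 5, and its log2 ratio passed 1 with both total-count scalings and with TPM. Unc93b1, which escorts the endosomal receptors, was 2.37-fold higher, with 1591 reads in the CKO library and 475 in the control library, and is named here outside the rule for named genes.

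**Figure D3:**
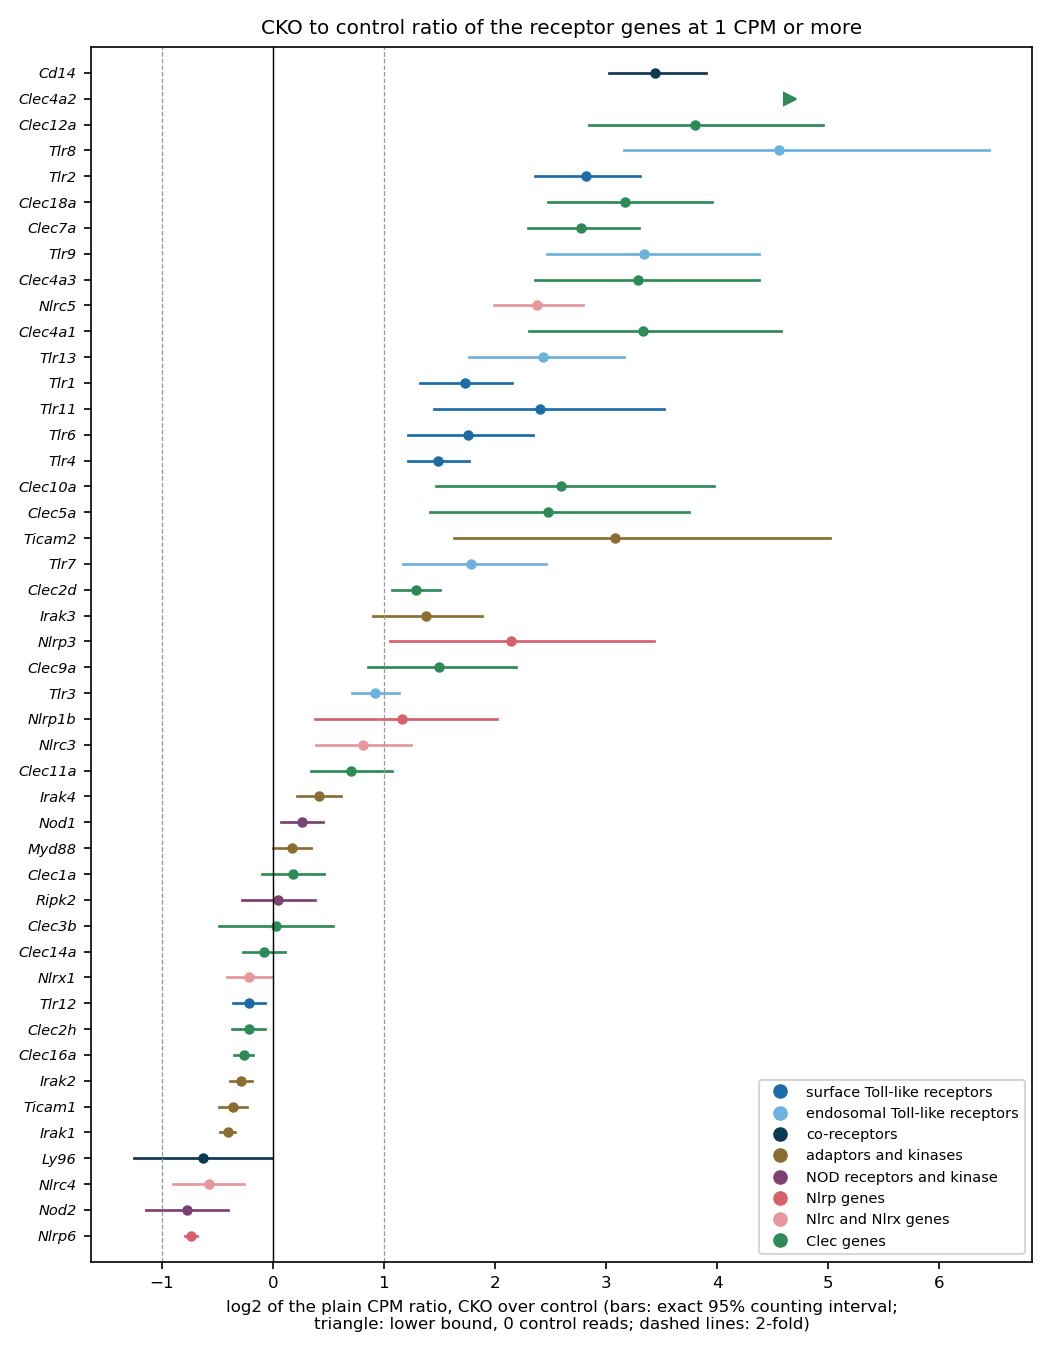
Plain CPM ratio of CKO over control on a log2 axis for the 46 receptor genes at 1 CPM or more, ordered by the log2 ratio of CPM + 0.5 and coloured by role. Bars are exact 95% counting intervals and the triangle is the lower bound of Clec4a2, at 0 reads in the control library. Cd14, most Toll-like receptors and the Clec4, Clec7a and Clec12a genes lie above 2-fold, and the common adaptors, the NOD genes and Nlrp6 lie around or below 0.

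The 7 adaptor and kinase genes had a median log2 ratio of 0.17, beside 1.44 for the 11 Toll-like receptor genes at 1 CPM or more. Myd88, used by most Toll-like receptors, had 719 reads in the CKO library and 451 in the control library, a log2 ratio of 0.17. Ticam1, the TRIF adaptor, had 1076 and 975 reads in the CKO and control libraries, a log2 ratio of -0.35. Irak1, the most abundant of the 7, had 3587 and 3358 reads in the CKO and control libraries, with a ratio of 0.755 (0.720 to 0.792). Irak2 had 1746 and 1506 reads in the CKO and control libraries (log2 ratio -0.28), and Irak4, the kinase that acts before the others, had 628 and 333 in them (log2 ratio 0.40). The signs for Irak1 and Ticam1 turned positive with TPM, and that for Irak2 with total counts, TPM or FPKM. The 2 genes of the 7 that were at least 2-fold higher, beside 10.9% of all protein-coding genes, were Irak3 and Ticam2. Irak3, a kinase-like inhibitor of the pathway known from macrophages, had 169 reads in the CKO library and 46 in the control library, and was 2.60-fold higher (1.87 to 3.68), and its span overlaps the lncRNA gene Gm38500. Ticam2, the TRAM adaptor that links Tlr4 to Ticam1, had 48 reads in the CKO library and 4 in the control library, and was 8.49-fold higher (3.11 to 32.4), but 14.6% of its 50-base stretches are shared, mostly with Tmed7.

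Further genes of Toll-like receptor signalling, which are not members, had a median log2 ratio of 0.05. Of 25 at 1 CPM or more, 5 were at least 2-fold higher, beside 10.9% of all protein-coding genes. None (0) was at least 2-fold lower, beside 1.39%. Besides Unc93b1, the higher ones were Tnfaip3, the A20 feedback inhibitor (835 reads in the CKO library and 149 in the control library, 3.96-fold), Lbp, the lipopolysaccharide-binding protein (3.39-fold, 2.66 to 4.37), Ikbke (3.04-fold) and Tifa (2.61-fold). The most abundant gene of the list, the chaperone gene Hsp90b1, which folds Toll-like receptors, had a log2 ratio of -0.17.

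The NOD genes and their kinase had ratios on both sides of 1. Nod1, for peptidoglycan fragments of mostly Gram-negative bacteria, had 614 reads in the CKO library and 362 in the control library, a ratio of 1.20 (1.05 to 1.37). Nod2, for muramyl dipeptide, had 116 reads in the CKO library and 140 in the control library, a log2 ratio of -0.68. Ripk2, the kinase both use, had 196 and 134 reads in the CKO and control libraries, a log2 ratio of 0.04. None of these 3 genes passed 2-fold.

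The Nlrp genes held the most abundant member and most of those with no read. Nlrp6, a receptor gene best known from intestinal epithelium (NCBI gene 101613, chromosome 7, 140920902 to 140929192), had 5109 reads in the CKO library and 6006 in the control library. Its level was 120 CPM (117 to 123) in the CKO library and 199 CPM (194 to 205) in the control library, 1.66-fold lower (1.60 to 1.73), and its log2 ratio of -0.73 was the lowest of the 46 genes. The log2 ratio stayed below 0 under every scaling tried, from -0.31 with TPM to -0.75 with DESeq2 size factors. Proximal tubule markers had a median log2 ratio of -0.74, and their part in the result was not tested. Nlrp3, the sensor of the best known inflammasome, was scarce, with 50 reads in the CKO library and 8 in the control library, 4.42-fold higher (2.08 to 10.8). Its log2 ratio of 1.13 was under the 2-fold limit with TPM (0.92), FPKM (0.51) or a pseudocount of 2 CPM (0.49). Nlrp1b had 57 reads in the CKO library and 18 in the control library. Nlrp10 had 22 reads in the CKO library and 2 in the control library, a ratio of 7.78 with an interval from 1.91 to 68.2, and Nlrp1a had 11 reads in the CKO library and 14 in the control library, and both genes stayed below 1 CPM. Nlrp12 and Nlrp4f had 4 and 5 reads in the CKO library and were listed at 0 in the control library.

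No read was found in either library for 11 of the 18 Nlrp genes, namely Nlrp2, Nlrp4a, Nlrp4b, Nlrp4c, Nlrp4e, Nlrp4g, Nlrp5, Nlrp9a, Nlrp9b, Nlrp9c and Nlrp14. These genes are best known from oocytes and early embryos. A count of 0 was set against a floor of 3 reads, or 0.0996 CPM in the control library, somewhat below the upper end of its two-sided 95% interval (0.123 CPM). Nlrp9c, Nlrp4a and Nlrp9a lie together on chromosome 7, within 209 kb. Nlrp4e shares 36.7% of its 50-base stretches with other genes, so reads of such copies could have been dropped or split in counting.

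Among the Nlrc and Nlrx genes, Nlrc5 had the largest ratio. Nlrc5, a transactivator of MHC class I genes (chromosome 8, 94434335 to 94527272), had 442 reads in the CKO library and 60 in the control library, 5.21-fold higher (3.97 to 6.94). Nlrc3, described as an inhibitor of immune signalling, had 166 and 67 reads in the CKO and control libraries, a log2 ratio of 0.69. Nlrc4, the inflammasome partner of the Naip proteins, had 163 reads in the CKO library and 172 in the control library, a log2 ratio of -0.52. Nlrx1, a mitochondrial member, had 457 and 374 reads in the CKO and control libraries, a ratio of 0.864 (0.752 to 0.993) that turned above 1 with total counts, TPM or FPKM.

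Of NLR genes with other names, 3 of 4 at 1 CPM or more were at least 2-fold higher, beside 10.9% of all protein-coding genes. Of the 3, Naip6 had 66 reads in the CKO library and was listed at 0 in the control library. Ciita, the MHC class II transactivator, had 814 reads in the CKO library and 120 in the control library, 4.80-fold higher (3.96 to 5.86). Naip5 had 95 reads in the CKO library and 12 in the control library, and was 5.60-fold higher (3.06 to 11.2), while Naip2, with 209 and 93 reads in the CKO and control libraries, had a log2 ratio of 0.59. The genes that act with or after inflammasomes had a median log2 ratio of 1.5, and this list also holds the Naip genes. Of its 17 genes at 1 CPM or more, 12 were at least 2-fold higher, beside 10.9% of all. None (0) was at least 2-fold lower, beside 1.39%. Casp4, which binds intracellular lipopolysaccharide, was 7.10-fold higher (4.77 to 11.0), with 271 reads in the CKO library and 27 in the control library. Aim2, a sensor of cytosolic DNA, was 6.03-fold higher (3.83 to 9.98). Among cytosolic nucleic acid sensors, 5 of 8 were at least 2-fold higher, beside 10.9% of all. They included Zbp1 (5.11-fold), Dhx58 (4.43-fold) and Tmem173, the STING gene (4.16-fold). Mavs, the most abundant of the list, had a log2 ratio of -0.06.

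Of the 33 Clec genes, 16 reached 1 CPM, 8 of them through the CKO library only. In the CKO library 10 of the 16 were at least 2-fold higher, beside 10.9% of all protein-coding genes, and 6 at least 4-fold higher, beside 2.07%. With the minimum on the mean of both libraries, 8 of 14 were at least 2-fold higher, beside 9.97% of all. Some of the 8, such as Clec4a2 and Clec12a, passed this minimum only through their CKO level. Clec7a, the beta-glucan receptor Dectin-1 (chromosome 6, 129461591 to 129472785), had 369 reads in the CKO library and 38 in the control library. Its level was 8.67 CPM (7.80 to 9.60) in the CKO library and 1.26 CPM (0.893 to 1.73) in the control library, 6.87-fold higher (4.91 to 9.86). Clec12a, an inhibitory receptor for uric acid crystals, had 178 reads in the CKO library and 9 in the control library, and was 14.0-fold higher (7.20 to 31.1). Clec4a1 and Clec4a3 had 114 and 138 reads in the CKO library, against 8 and 10 in the control library, and were 10.1-fold (4.94 to 23.9) and 9.76-fold higher (5.15 to 20.8). Clec4a2, the inhibitory receptor DCIR (NCBI gene 26888, chromosome 6, 123122690 to 123143999), had 107 reads in the CKO library and was listed at 0 in the control library, at least 25.2-fold higher against that floor (lower end of the two-sided interval 20.2), with 6.69% of its 50-base stretches shared, mostly with Clec4a4. Clec10a, a receptor for galactose-type sugars on macrophages, had 60 reads in the CKO library and 7 in the control library, and was 6.06-fold higher (2.77 to 15.7), although 9.02% of its 50-base stretches are shared, mostly with Mgl2. Clec5a, a receptor that signals through Tyrobp, had 63 reads in the CKO library and 8 in the control library, and was 5.57-fold higher (2.66 to 13.5). Clec9a, which marks a class of dendritic cells and binds actin of dead cells, had 100 reads in the CKO library and 25 in the control library, and was 2.83-fold higher (1.81 to 4.58).

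Clec4n, the Dectin-2 gene, had 42 reads in the CKO library and Clec4b1 had 34, each below 1 CPM and listed at 0 in the control library, at least 9.90-fold and at least 8.01-fold higher against that floor (lower ends of the two-sided intervals 7.70 and 6.17). Clec4d had 7 reads in the CKO library, against 0 in the control library, and Clec4e, the Mincle gene induced in activated macrophages, had none in either library. Clec2d, the most abundant Clec gene of the CKO library on the TPM scale, had 785 reads in the CKO library and 227 in the control library, 2.45-fold higher (2.11 to 2.85). Clec18a had 230 reads in the CKO library and 18 in the control library, and was 9.04-fold higher (5.59 to 15.5). Clec11a, a secreted growth factor, had 214 and 93 reads in the CKO and control libraries, a log2 ratio of 0.62 that came to 1.01 with TPM.

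The other Clec genes at 1 CPM or more lay between the 2-fold limits. Clec14a, an endothelial receptor, had 518 and 387 reads in the CKO and control libraries (log2 ratio -0.08, positive with both total-count scalings, TPM or FPKM), and Clec1a had 280 and 175 in them (log2 ratio 0.16). Endothelial markers did not pass 2-fold in either direction and had a median of -0.03. Of the 8, 0 were higher, beside 10.9% of all protein-coding genes, and 0 lower, beside 1.39%. Clec3b, the plasminogen-binding tetranectin, had 82 and 57 reads in the CKO and control libraries, a log2 ratio of 0.02. Clec2h had 821 and 674 reads in the CKO and control libraries (log2 ratio -0.21, positive with total counts, TPM or FPKM). Clec16a, a regulator of mitophagy rather than a surface lectin, had 2459 reads in the CKO library and 2084 in the control library, a ratio of 0.834 (0.787 to 0.885) that turned above 1 with total counts or TPM. Clec4f, known from Kupffer cells, Clec4g, known from liver sinusoids, and Clec1b, known from platelets, had no read in either library. The same held for Clec2g, Clec2j, Clec3a, Clec4a4, Clec4b2 and Clec4e, which makes 9 of the 33. Below 1 CPM, Clec2i had 11 reads in the CKO library and 4 in the control library, and Clec2l, Clec2e and Clec2f had 9, 3 and 3 reads in the CKO library and 0 in the control library.

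Many of the Clec genes are neighbours on chromosome 6. A stretch from 122921848 to 123289871 (GRCm38.p6) holds 9 members from Clec4a1 to Clec4e and no other protein-coding gene of the table. The 3 of them at 1 CPM or more had log2 ratios from 2.05 to 2.59, another 3 had no read, and Clec4n, Clec4b1 and Clec4d had reads in the CKO library only. A second stretch from 128655105 to 129472785 holds 13 members from Clec2j to Clec7a. Its 6 members at 1 CPM or more ranged from -0.21 for Clec2h to 2.55 for Clec12a, so neighbours there differed, and none (0) of the 7 other protein-coding genes in it reached 1 CPM. Clec12b, with 3 reads in each library, overlaps Clec1a and Clec9a.

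The partners of these lectins were mixed. Of 11 genes of C-type lectin signalling at 1 CPM or more, 4 were at least 2-fold higher, beside 10.9% of all protein-coding genes. None (0) was at least 2-fold lower, beside 1.39%, and the median was 0.72. Tyrobp, an adaptor of myeloid receptors, had 394 reads in the CKO library and 59 in the control library, 4.72-fold higher (3.58 to 6.32). The kinase gene Syk was 4.21-fold higher (3.30 to 5.45), the adaptor gene Fcer1g 3.55-fold (2.53 to 5.10) and Card9 2.91-fold (1.70 to 5.28). C-type lectins with other names had 5 of 10 genes past 2-fold upward, beside 10.9% of all, with a median of 1.04. Mrc1, the macrophage mannose receptor and also one of the macrophage markers, was 5.83-fold higher (4.77 to 7.19), Mgl2 4.56-fold, Ly75 3.28-fold, Colec12 2.49-fold and Mrc2 2.2-fold.

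**Figure D4:**
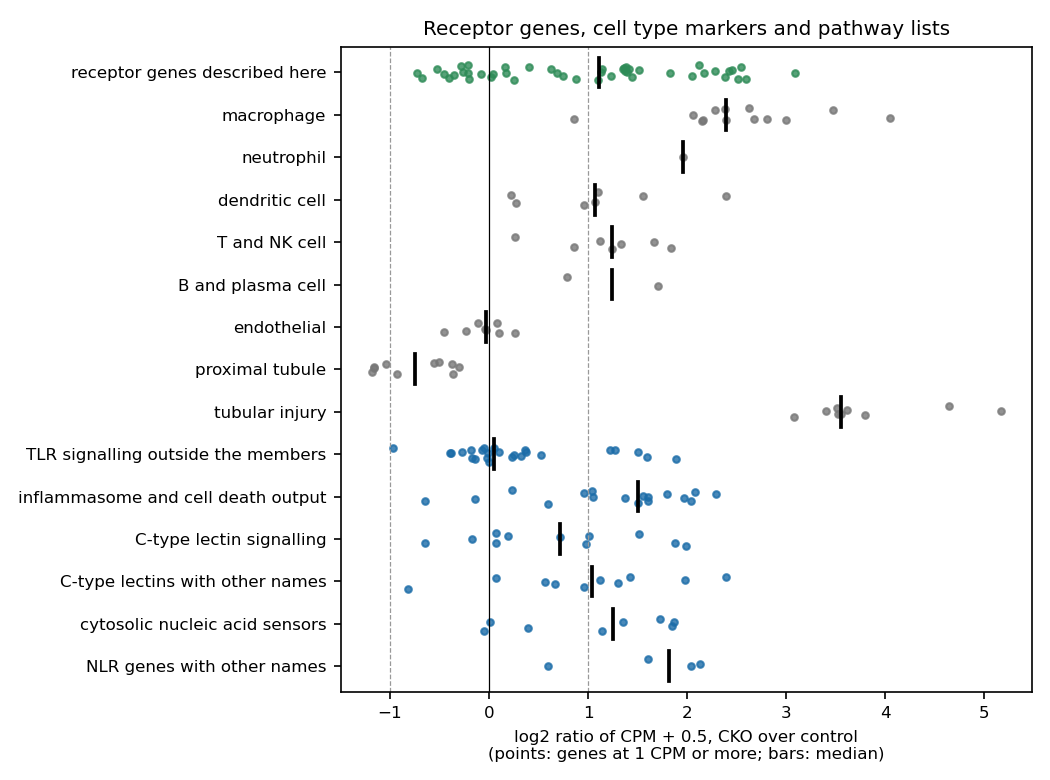
Log2 ratio of CPM + 0.5, CKO over control, for the receptor genes (green), the cell type markers (grey) and the pathway lists (blue), with 1 point per gene at 1 CPM or more and a bar at each median. Macrophage markers centre on 2.39 and tubular injury markers on 3.55, the receptor genes spread from -0.73 to 3.09, and the medians of endothelial and proximal tubule markers lie below 0.

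Markers of immune cells moved with the receptors. The counts of higher markers below stand beside 10.9% of all protein-coding genes at 1 CPM or more. Macrophage markers had 12 of 13 genes at least 2-fold higher, a median log2 ratio of 2.39 and a summed level of 384 CPM in the CKO library, against 81.6 CPM in the control library. Lyz2, the myeloid lysozyme gene, was 18.1-fold higher (15.4 to 21.4), Ccr2 13.4-fold, Itgam 10.7-fold and C1qc 7.77-fold, while Csf1r, the most abundant by the mean of both libraries, was 1.83-fold higher (1.72 to 1.94). Ms4a7 was listed at 0 in the control library alone. Dendritic cell markers had 4 of 7 genes higher, with a median of 1.07 and a summed level of 50.8 CPM in the CKO library and 31.7 CPM in the control library, with Itgax 6.62-fold and Siglech 8.77-fold higher. T and NK cell markers had 5 of 7 higher (median 1.24, summed level 15.9 CPM in the CKO library and 4.78 CPM in the control library), and B and plasma cell markers 1 of 2 (median 1.24, 21.9 CPM in the CKO library and 9.83 CPM in the control library).

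Neutrophil markers summed to 5.0 CPM in the CKO library and 1.06 CPM in the control library, and S100a8, Ly6g, Mpo, Elane, Ngp and Camp were at 0 in both. Csf3r, the 1 neutrophil marker at 1 CPM, was 5.85-fold higher (3.75 to 9.57). Tubular injury markers summed to 5321 CPM in the CKO library and 452 CPM in the control library, with Lcn2 79.8-fold and Krt19 55.1-fold higher. The part of these cell types and of injured epithelium in the receptor values was not tested.

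The listed zeros of the control library limit the bounds given above. Among 1429 protein-coding genes whose CKO reads numbered 30 to 100, 107 were at 0 in the control library and 35 had 1 to 3 reads there. Of all protein-coding genes with 30 reads or more in the CKO library, 0.878% were at 0 in the control library. The folds against the floor for Clec4a2, Clec4n, Clec4b1 and Tlr5 would be too high if a listed 0 stood for more than 3 reads. The interval ends given with them would be too high if a listed 0 stood for any read. What a listed 0 stood for was not tested.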

How the data were processed

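The 2 libraries were made from whole-kidney RNA with a stranded mRNA kit, per the labels' protocols. The mm10 build, the aligner STAR 2.7.3a and the tools edgeR, DESeq2, Cufflinks 2.2.1, HTSeq and FastQC come from the submitters' processing notes, which give no role or order. The deposited read counts per gene are raw whole numbers, per the file headers. The deposited TPM and FPKM values are the authors' and are scaled by gene length. The authors' normalized signal for 19550 genes equals the count divided by 42.6 in the CKO and 30.1 in the control library. Whether counting used the strand is not given in the sources used here.

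Counts were scaled by TMM (edgeR 4.0.16, R 4.3.3) over the 23481 genes that had any read, with factors of 1.12 for the CKO and 0.896 for the control library. Log2 ratios use CPM + 0.5, which understates the ratio of scarce genes, and genes that reached 1 CPM in at least 1 library were counted against a 2-fold limit. Plain ratios carry exact Clopper-Pearson 95% intervals and levels exact Poisson intervals, both for counting error only, since reads without molecular identifiers are not independent molecules. Genes at 0 in the control library were set against a control floor of 3 reads. Python 3.11.15 with scipy 1.17.1 was used for the rest, and the steps were tested on simulated counts. Coordinates and overlaps come from RefSeq on GRCm38.p6, the assembly behind mm10, found for all 79 members. Shared sequence was measured as 50-base stretches of GENCODE transcripts on the same strand.

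Folds with intervals are given for the 30 members whose interval stays farthest from 1 and for the most abundant member of each role by mean CPM. From the other lists, names were limited to the 4 genes with the largest log2 ratios and the most abundant, and some of these were left out. Genes named outside that rule (Unc93b1, Ms4a7 and the silent neutrophil markers) were chosen after their values were seen. The members and lists were chosen with earlier results of these data known.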

Additional observations from a re-analysis of the deposited data

How the results depend on the processing

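The count of 24 members (of 46) at least 2-fold higher was 15 (of 46) with a pseudocount of 2 CPM, beside 5.93% of all protein-coding genes. It was 5 (of 18) with a minimum of 10 CPM, beside 5.7% of all, and 15 (of 35) with the deposited FPKM values, beside 11.3%. Ticam2, Tlr11, Clec5a, Tlr7, Nlrp3, Irak3 and Clec9a were under the limit with both FPKM and that pseudocount, and Clec10a and Tlr6 with the pseudocount. The count of higher members ranged from 20 to 28 under the other alternatives, where 8.41% to 20% of all protein-coding genes were higher. Of these alternatives 2 were chosen after seeing the data. They left out members with shared or overlapping sequence (20 of 42) or genes at 0 in the control library (23 of 45). The count of 0 members at least 2-fold lower held under the alternatives tried except a 1.5-fold limit, which gave 2. The median log2 ratio of 1.11 was 0.58 with a pseudocount of 2 CPM and 0.046 with a minimum of 10 CPM, where all protein-coding genes had medians of 0.01 and -0.07. The count of 1480 higher protein-coding genes (of 13556) was 2256 (of 13628) with total counts and 804 (of 13556) with a pseudocount of 2 CPM. It was 565 (of 9887) with a minimum of 10 CPM, 2711 (of 13556) with a 1.5-fold limit and 2307 (of 13237) with TPM. Total counts moved the median of all protein-coding genes to 0.32, the total without the 50 most abundant and mitochondrial genes to 0.20, TPM to 0.41 and FPKM to 0.27. The sign of 8 of the 46 members changed with the scaling, none (0) of them among the 24 higher ones. No value of a member given with its fold reversed from past 2-fold. The cause of these shifts was not tested. No paired analysis was possible because each group has 1 library, and no replicate could be left out for the same reason. The depth of 38136616 and 33618076 reads in the CKO and control libraries limits the scarce members most, since 33 of the 79 stayed below 1 CPM in both libraries.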
